A study of Mus musculus with 8 samples.

Results

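The Notch genes described here are 4 receptors (Notch1, Notch2, Notch3 and Notch4), 2 ligands (Jag1 and Dll1) and 4 target genes (Hes1, Hes5, Hey1 and Heyl). They are 10 of the 16593 gene symbols on the array, chosen by symbol, and 13 of the 25697 probes on the array carry one of these symbols in the platform annotation. Notch2, Notch4 and Hes5 have 2 probes each and the other 7 genes have 1. RNA of 8 mouse kidneys was hybridised to Illumina bead arrays with a single colour. Of these, 4 were tumors that arose in mice carrying a Lin28 transgene, described in the labels as Wilms tumors, and 4 were normal kidneys used as controls. Tumor 1 and control 1 come from animals of 5 weeks, and tumors and controls 2 to 4 from animals of 4 months. Lin28 binds precursors of let-7 microRNAs and prevents their processing. The promoter and cells in which the transgene is active, the genotype of the control animals, and strain and sex were not stated in the labels used here. The labels call the samples biological replicates.

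Notch receptors sit in the cell membrane and are bound by ligands on a neighbouring cell. Binding lets ADAM proteases and then gamma-secretase cut the receptor, and the freed intracellular part enters the nucleus, where it joins the DNA-binding protein RBPJ and a Mastermind coactivator. The Hes and Hey genes switched on in this way encode basic helix-loop-helix repressors. In the developing mouse kidney, Notch signalling drives the segmentation of the early nephron and promotes proximal fates. In blood vessels, Notch4 is mainly a receptor of endothelial cells and Notch3 one of smooth muscle cells and pericytes.

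Values are intensities that the authors had corrected for background and scaled to an equal mean. The background limit of an array was set at 3 times its noise; it was 27.6 for tumor 1 and ranged from 10.7 to 16.5 elsewhere. Changes are log2 differences after setting values below 0 to 0 and adding 16, which understates the changes of dim genes. Of the 10 Notch genes, 9 passed the filter on low values, and Hes5 did not. Across the 11413 genes and unnamed probes tested, 5064 were called at an adjusted p under 0.05 (44.4%), 3677 higher in tumors (32.2%) and 1387 lower (12.2%). The groups did not overlap for 4599 of them (40.3%). The median of all genes was 0.35 log2 units higher in tumors as deposited and -0.01 after cyclic loess, so changes relative to that median are given as well. With the authors' scaling 72.6% of the called genes were higher in tumors, against 50.1% with cyclic loess, 55.4% with quantile normalization and 54.7% with arrays scaled to the same median.

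The labelled tissue was checked by its markers. Slc34a1, a phosphate transporter of the proximal tubule, read 11797, 743, 1369 and 344 in tumors 1 to 4, and between 13062 and 17206 in controls. Tumor 1 lay much closer to the controls than the other 3 tumors did. Wt1, a gene of nephron progenitors and podocytes, averaged 3099 ± 627 in the tumors, against 163 ± 54.6 in the controls (n = 4 each, SD). Xist, which silences an X chromosome in females, read 155 to 301 in tumors and 2.20 to 34.8 in controls on its brighter probe. Kdm5d, a Y-linked gene, read at most 4.60 in tumors, 44.7 to 53.7 in controls 1, 3 and 4, and -5.60 in control 2. The part of sex in the results was not tested. In bulk tissue fewer cells of a type and less RNA per cell cannot be told apart.

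Of the 9 tested Notch genes, 7 rose in tumors, 0 fell and 2 did not pass the test. This is 77.8% of those tested, beside 32.2% of all genes tested that were higher in tumors. The genes that rose were Notch1, Notch3, Jag1, Dll1, Hes1, Hey1 and Heyl, and for these 7 the tumors and controls did not overlap, beside 40.3% of all genes tested. Of these 7, Heyl was above background in 0 of 4 controls and Jag1 in 2. The median change of the 9 was 1.21 log2 units, or 0.86 above the median of all genes. Under cyclic loess, quantile normalization and a scaling of arrays to an equal median, 5 rose and 0 fell, since Dll1 and Hes1 did not pass. Of all genes tested, cyclic loess called 18.8% higher and 18.7% lower, quantile normalization 20.9% higher and 16.8% lower, and the median scaling 21.8% higher and 18.1% lower.

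**Figure D1:**
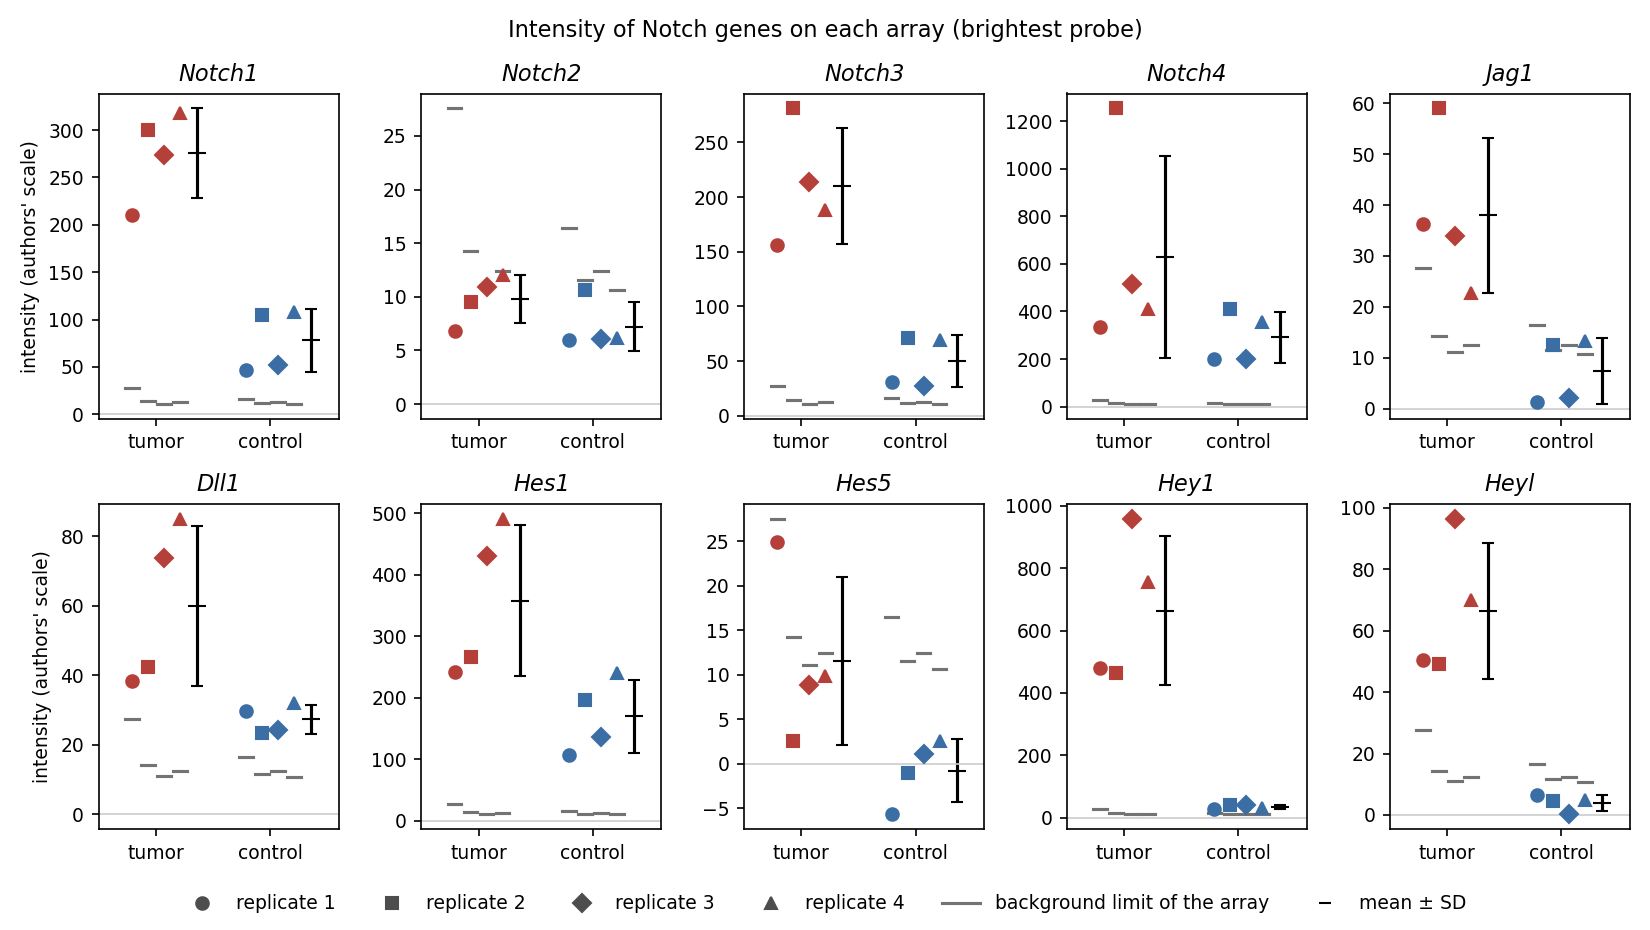
Intensity (authors' scale) of each Notch gene on each array, tumors left of controls, with 1 marker shape for each replicate number, black bars for mean ± SD (n = 4 each) and grey dashes for each array's background limit. Vertical scales differ between panels; Hey1 lies at 462.5 or more in tumors and at 40.8 or less in controls, while Notch2 and Hes5 lie under the limits on all arrays.

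Notch1, a receptor known from the early nephron and from T cells, read 211, 301, 273 and 319 in tumors 1 to 4, and 46.9, 105, 52.3 and 108 in controls 1 to 4. Every tumor lay above every control. The means were 276 ± 47.2 in the tumors, against 78.1 ± 33.0 in the controls (n = 4 each, SD), a rise of 1.69 ± 0.28 (SE) log2 units, or 3.22-fold (limma adjusted p = 0.00214), and of 1.34 relative to the median gene.

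Notch3, the receptor of vascular smooth muscle and pericytes, read 156, 281, 214 and 189 in tumors 1 to 4, and 31.3, 71.0, 27.5 and 69.6 in controls 1 to 4. The groups lay apart, and controls 2 and 4 were again the higher controls, as for Notch1. Its means were 209.9 ± 53.2 in the tumors, against 49.9 ± 23.7 in the controls, and Notch3 rose by 1.82 ± 0.30 log2 units, or 3.54-fold (limma adjusted p = 0.00202), and by 1.48 relative to the median gene.

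The sequence before the starts of Notch1 and Notch3 is shown, from RefSeq's promoters on GRCm38.p6 (250 bases before to 50 after each gene's start). Capitals mark the GC box GGGCGG on either strand, the motif of Sp1-type factors. The stretch of Notch1 is chr2:26503827-26503910 on the minus strand and holds 5 matches, and that of Notch3 is chr17:32166898-32166976 on the minus strand and holds 4.
Notch1: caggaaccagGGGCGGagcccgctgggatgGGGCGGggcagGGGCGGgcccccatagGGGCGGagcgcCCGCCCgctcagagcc
Notch3: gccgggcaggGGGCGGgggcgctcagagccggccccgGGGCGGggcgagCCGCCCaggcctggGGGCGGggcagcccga
Of the 8 promoters found for 7 of the Notch genes, 3 hold the GC box (those of Notch1, Notch2 and Notch3), beside 35.7% of all 32851 promoters of this length. The promoter of Notch2, whose probes gave no level, holds 7 matches. Those of Jag1, Dll1, Notch4 and Hes5 hold 0. The match is a description of these letters and was not tied to the measured levels.

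Notch4, the endothelial receptor, read 335, 1254, 514 and 411 in tumors 1 to 4, and 199.7, 411, 202 and 355 in controls 1 to 4. Tumor 2 was the highest, and tumor 1 lay below controls 2 and 4. The means were 628 ± 423 in the tumors, against 292 ± 108 in the controls. The difference of 0.94 ± 0.42 log2 units (95% interval -0.01 to 1.89) did not pass (limma adjusted p = 0.0991). It was 0.55 without tumor 2 (adjusted p = 0.190), and it passed without tumor 1 (1.17, adjusted p = 0.0469), with array weights (1.12, adjusted p = 0.00404) and with the replicate number as a block (0.94, adjusted p = 0.0340). A second, dimmer probe of Notch4 read 28.5, 54.3, 19.2 and 17.1 in tumors and 18.4, 24.0, 15.2 and 17.8 in controls, with tumor 2 again highest.

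Notch2, a receptor needed for proximal nephron fate in the mouse, did not exceed the background limit with either of its probes in any sample. The brighter probe read 6.80, 9.50, 10.9 and 12.0 in tumors 1 to 4, and 6.0, 10.6, 6.10 and 6.2 in controls 1 to 4. Its difference of 0.15 ± 0.16 log2 units did not pass (limma adjusted p = 0.470), and it was -0.14 with quantile normalization and -0.10 with cyclic loess. These probes give no level of Notch2 in either group.

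Among the ligands, Jag1, which presents to Notch on nephron, vascular and stromal cells, read 36.2, 59.0, 33.9 and 22.8 in tumors 1 to 4, and 1.40, 12.6, 2.20 and 13.4 in controls 1 to 4. All 4 tumors and 2 of the 4 controls (2 and 4) were above background, and the groups did not overlap. With means of 38.0 ± 15.2 in the tumors, against 7.40 ± 6.48 in the controls, Jag1 rose by 1.21 ± 0.27 log2 units, or 2.31-fold (limma adjusted p = 0.00782). The fitted change was 2.01 with 4 added to the intensities in place of 16, and 0.51 with 64 added.

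Dll1, a ligand of the early nephron that sits on signal-sending cells, read 38.4, 42.5, 73.8 and 85.1 in tumors 1 to 4, and 29.6, 23.4, 24.4 and 32.1 in controls 1 to 4. Tumors 3 and 4 stood well above the controls, while tumor 1 exceeded the highest control by little. With means of 59.9 ± 23.0 in the tumors, against 27.4 ± 4.16 in the controls, Dll1 rose by 0.76 ± 0.24 log2 units, or 1.70-fold (limma adjusted p = 0.0288), and by 0.42 relative to the median gene. Its change was 0.23 with cyclic loess (adjusted p = 0.433), and the call was lost when any 1 of tumors 3 and 4 and controls 1, 2 and 3 was left out (0.61 to 0.79, adjusted p = 0.0572 to 0.0819).

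Of the targets, Hey1, a repressor of the Hey subfamily, changed most among the Notch genes. It read 479, 462.5, 959 and 754 in tumors 1 to 4, and 28.9, 40.2, 40.8 and 31.7 in controls 1 to 4. Controls lay close together and far below every tumor. With means of 664 ± 238 in the tumors, against 35.4 ± 6.0 in the controls, Hey1 rose by 3.67 ± 0.26 log2 units, or 12.7-fold (limma adjusted p = 6.29e-05), and by 3.32 relative to the median gene. Over the alternatives its change lay between 2.82 and 4.04, always past the threshold.

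Heyl, the Hey gene known from vascular smooth muscle, read 50.5, 49.0, 96.5 and 69.9 in tumors 1 to 4, and 6.50, 4.40, 0.20 and 4.8 in controls 1 to 4. All tumors were above background and all controls at or under it. The means were 66.5 ± 22.2 in the tumors, against 3.98 ± 2.68 in the controls. Heyl passed the filter on low values through the tumors. The fitted change, with control values near the floor, was 2.02 ± 0.22 log2 units (limma adjusted p = 3.92e-04). Taking each control at its background limit with 16 added, the rise was at least 2.80-fold, a bound with no test.

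Hes1, a repressor switched on by Notch in many progenitor cells, read 242, 266, 432 and 492 in tumors 1 to 4, and 108, 197, 136 and 240.2 in controls 1 to 4. The lowest tumor, tumor 1, and the highest control, control 4, differed by less than 2 intensity units. With means of 358 ± 123 in the tumors, against 170.2 ± 59.7 in the controls, Hes1 rose by 1.00 ± 0.31 log2 units, or 2.00-fold (limma adjusted p = 0.0283), and by 0.66 relative to the median gene. With cyclic loess the change was 0.59 (adjusted p = 0.103), with no filter the adjusted p was 0.0619, and the call was lost when any 1 of tumors 3 and 4 and controls 1 and 3 was left out (0.82 to 0.93, adjusted p = 0.0759 to 0.0778).

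Hes5, a classical Notch target of neural progenitors and of the early nephron, did not exceed the limit in any sample. Its brighter probe read 24.9, 2.6, 8.90 and 9.90 in tumors 1 to 4, and -5.70, -1.0, 1.10 and 2.50 in controls 1 to 4. Its second probe read 16.5 in tumor 1 and at most 2.00 on the other 7 arrays. Both probes are under the filter on low values, so Hes5 was not tested.

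**Figure D2:**
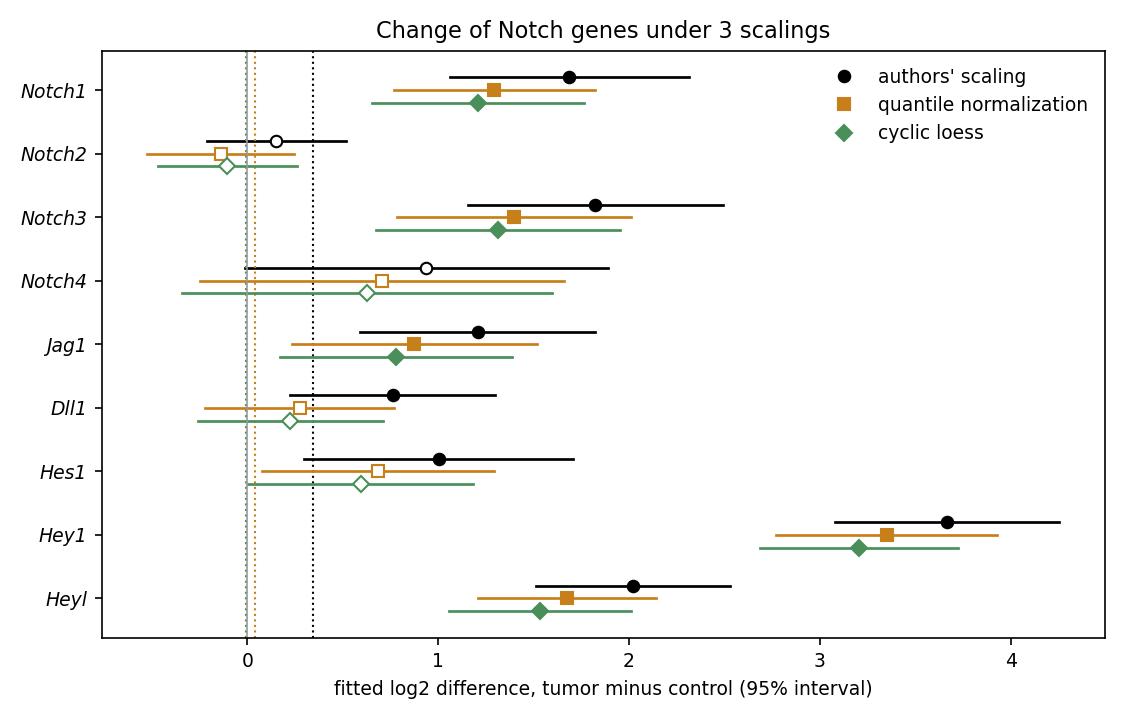
Fitted log2 difference, tumor minus control, of the 9 tested Notch genes with 95% intervals, under the authors' scaling (black circles), quantile normalization (orange squares) and cyclic loess (green diamonds). Filled markers passed the threshold, and dotted lines give the median of all genes; Hey1 stands apart at 3.67, 3.35 and 3.21, and Dll1 and Hes1 are filled only with the authors' scaling.

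Hes5 is the Notch gene whose promoter in RefSeq's table holds the core letters of the RBPJ site, TGGGAA on either strand, marked in capitals below. It is set beside Hey2, another target, which rose in the tumors. The stretch of Hes5 is chr4:154960677-154960866 on the plus strand, and the capitals begin 226 and 82 bases before the gene's start. The stretch of Hey2 is chr10:30842965-30843010 on the minus strand, with a match that begins 207 bases before the start (GRCm38.p6). The promoter of Hey2 holds 1 more match, which begins 3 bases before the start, runs across it and is not shown.
Hes5: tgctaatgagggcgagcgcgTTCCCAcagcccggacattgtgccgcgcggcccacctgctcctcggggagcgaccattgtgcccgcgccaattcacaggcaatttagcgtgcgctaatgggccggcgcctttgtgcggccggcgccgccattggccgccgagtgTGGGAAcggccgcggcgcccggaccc
Hey2: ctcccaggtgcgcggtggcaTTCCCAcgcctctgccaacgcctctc
Of the 8 promoters of 7 Notch genes, 1 holds these letters, beside 25.6% of all 32851 promoters. Among the other genes of the pathway, 16 of 66 promoters (24.2%) hold them. Promoters of Hes1, Hey1 and Heyl were not used here. The core letters are in the promoter of Hes5, which was at or under background, and no match in a window says nothing of RBPJ at that gene.

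The rest of the pathway was described from 8 lists of 63 other genes by role, of which 55 had a probe and 43 were tested. Of these 43, 24 rose (55.8%, beside 32.2% of all genes) and 2 fell, and the median was 0.37 above the median of all genes. With cyclic loess 14 rose and 5 fell, beside 18.8% and 18.7% of all genes. Quantile normalization gave 14 higher and 4 lower, beside 20.9% and 16.8% of all genes. The median scaling gave 14 higher and 3 lower, beside 21.8% and 18.1% of all genes. With the authors' scaling the inhibitors and turnover factors moved most often, with 8 of 9 higher (88.9%, beside 32.2% of all genes) and 0 lower. Of these 8, Dtx1 was above background in 0 of 4 controls and passed the filter on low values through the tumors. Numb, which blocks the receptor, did not pass (0.08 ± 0.21, limma adjusted p = 0.773). Numb was named after its values were seen. Nrarp, a feedback inhibitor that Notch itself induces, read 359, 588, 609 and 332 in tumors 1 to 4, and 73.8, 119, 113 and 96.1 in controls 1 to 4. The groups are far apart, and Nrarp rose by 2.03 ± 0.25 log2 units, or 4.10-fold (limma adjusted p = 6.53e-04). Dtx4, a Deltex ubiquitin ligase, rose by 1.73 ± 0.40 log2 units (adjusted p = 0.00828), with 594 in tumor 2 and 242 to 299 in the other 3 tumors, against 42.8 to 167 in controls.

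Of 9 nuclear corepressors 6 rose (66.7%, beside 32.2% of all genes) and 0 fell. The Groucho-type corepressors Tle1 and Tle4, which bind Hes proteins, rose by 1.71 ± 0.42 (limma adjusted p = 0.0108) and 1.33 ± 0.35 log2 units (adjusted p = 0.0149). Tle1 averaged 474 ± 249 in the tumors, against 134 ± 79.4 in the controls (n = 4 each, SD). A second Tle1 probe read 33.7, 118, 200 and 350 in tumors 1 to 4, and 38.0 to 88.0 in controls. Its difference of 1.13 ± 0.61 did not pass (limma on every probe without the filter, adjusted p = 0.252). The remaining Tle1 probes were at or under background throughout. Of 6 nuclear activators 4 rose (also 66.7%) and 0 fell. Among those that rose were the Mastermind coactivators Maml1 (0.89 ± 0.17, adjusted p = 0.00404) and Maml3 (0.82 ± 0.24, adjusted p = 0.0247). Neither Maml1 nor Maml3 passed with cyclic loess (0.35 and 0.39, adjusted p = 0.120 and 0.215) or with quantile normalization (0.41 and 0.45, adjusted p = 0.0713 and 0.181). Maml3 was also lost when any 1 of tumor 4 and controls 1 and 3 was left out (adjusted p = 0.0632 to 0.0711), with the median scaling, with 64 added and at 4 months alone (adjusted p = 0.0506 to 0.0552). The 3 probes of Rbpj, the DNA-binding partner of every Notch receptor, read at most 9.70 on any array and were at or under background throughout. Rbpj was chosen for mention after its values were seen.

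Of 6 measured genes of receptor cleavage 2 rose and 1 fell. The 33.3% that rose are close to the 32.2% of all genes tested, and 12.2% of all genes fell. Adam17, a protease of the first cut, rose by 0.71 ± 0.18 log2 units (limma adjusted p = 0.0135), but did not pass with cyclic loess (0.37, adjusted p = 0.158), quantile normalization (0.47, adjusted p = 0.0807) or the median scaling (0.39, adjusted p = 0.145). The gamma-secretase subunit Ncstn rose by 0.63 ± 0.18 (adjusted p = 0.0222) on its brightest probe, while 2 other probes differed by 0.11 and -0.11. The call for Ncstn was lost without tumor 3, tumor 4, control 1 or control 3 (adjusted p = 0.0570 to 0.0665), with the median scaling (0.30, adjusted p = 0.157) and with the mean of its probes (0.21, adjusted p = 0.557). Aph1a, another subunit, fell by 0.60 ± 0.22 log2 units (adjusted p = 0.0488) but did not pass after removal of any single array other than control 2 (adjusted p = 0.0650 to 0.138) or under 7 other alternatives (adjusted p = 0.0507 to 0.104).

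Of 3 other ligands 1 rose and 0 fell, again a share (33.3%) near that of all genes. Jag2 averaged 27.2 ± 6.68 in the tumors, against 7.0 ± 8.51 in the controls (n = 4 each, SD) and rose by 0.85 ± 0.23 log2 units (limma adjusted p = 0.0176), but did not pass with cyclic loess (0.46, adjusted p = 0.124) or quantile normalization (0.52, adjusted p = 0.135). Dlk1, a non-canonical ligand and imprinted gene named after its values were seen, read 15.1, 4.2, 33.3 and 252.8 in tumors 1 to 4 and at most 1.00 in controls. It was above background in tumors 3 and 4 only and did not pass (adjusted p = 0.0693). Of 4 genes that modify the receptor with sugars 1 rose and 0 fell, 25.0% beside 32.2% of all genes, namely Poglut1, which adds glucose to it (1.04 ± 0.21 log2 units, adjusted p = 0.00474). Of 3 genes of ligand endocytosis 1 rose (33.3%) and 0 fell. Neurl1a, a Neuralized ubiquitin ligase, rose by 2.38 ± 0.42 log2 units, or 5.19-fold (adjusted p = 0.00300), with 160 to 475 in tumors and 15.8 to 89.0 in controls. Mib1 and Mib2, the main ligases for Notch ligands, named after their values were seen, differed by 0.19 ± 0.22 and 0.07 ± 0.18 and did not pass (adjusted p = 0.500 and 0.768).

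Of 3 other measured genes of the Hes and Hey family 1 rose (33.3%, near the 32.2% of all genes) and 1 fell. Hey2 read 26.0, 16.8, 37.5 and 29.9 in tumors 1 to 4, and 3.70, 7.5, -0.70 and 5.30 in controls 1 to 4. It was above background in 3 of 4 tumors and 0 of 4 controls, and it passed the filter on low values through the tumors. The fitted change was 1.11 ± 0.21 log2 units (limma adjusted p = 0.00391). With each control at its background limit the rise was at least 1.49-fold, a bound with no test. Hes6, which counteracts Hes1 in the mouse, read 562, 310.1, 461.5 and 506.5 in tumors 1 to 4, and 664, 673, 784 and 646 in controls 1 to 4. Hes6 fell by 0.60 ± 0.21 log2 units (adjusted p = 0.0452). It did not pass after removal of any single array other than tumor 1 (adjusted p = 0.0632 to 0.121). The call of Hes6 was also lost with the replicate number as a block (-0.60, adjusted p = 0.0615), 4 added (adjusted p = 0.0601), no filter (adjusted p = 0.0528) and the mean of its probes (adjusted p = 0.0601).

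**Figure D3:**
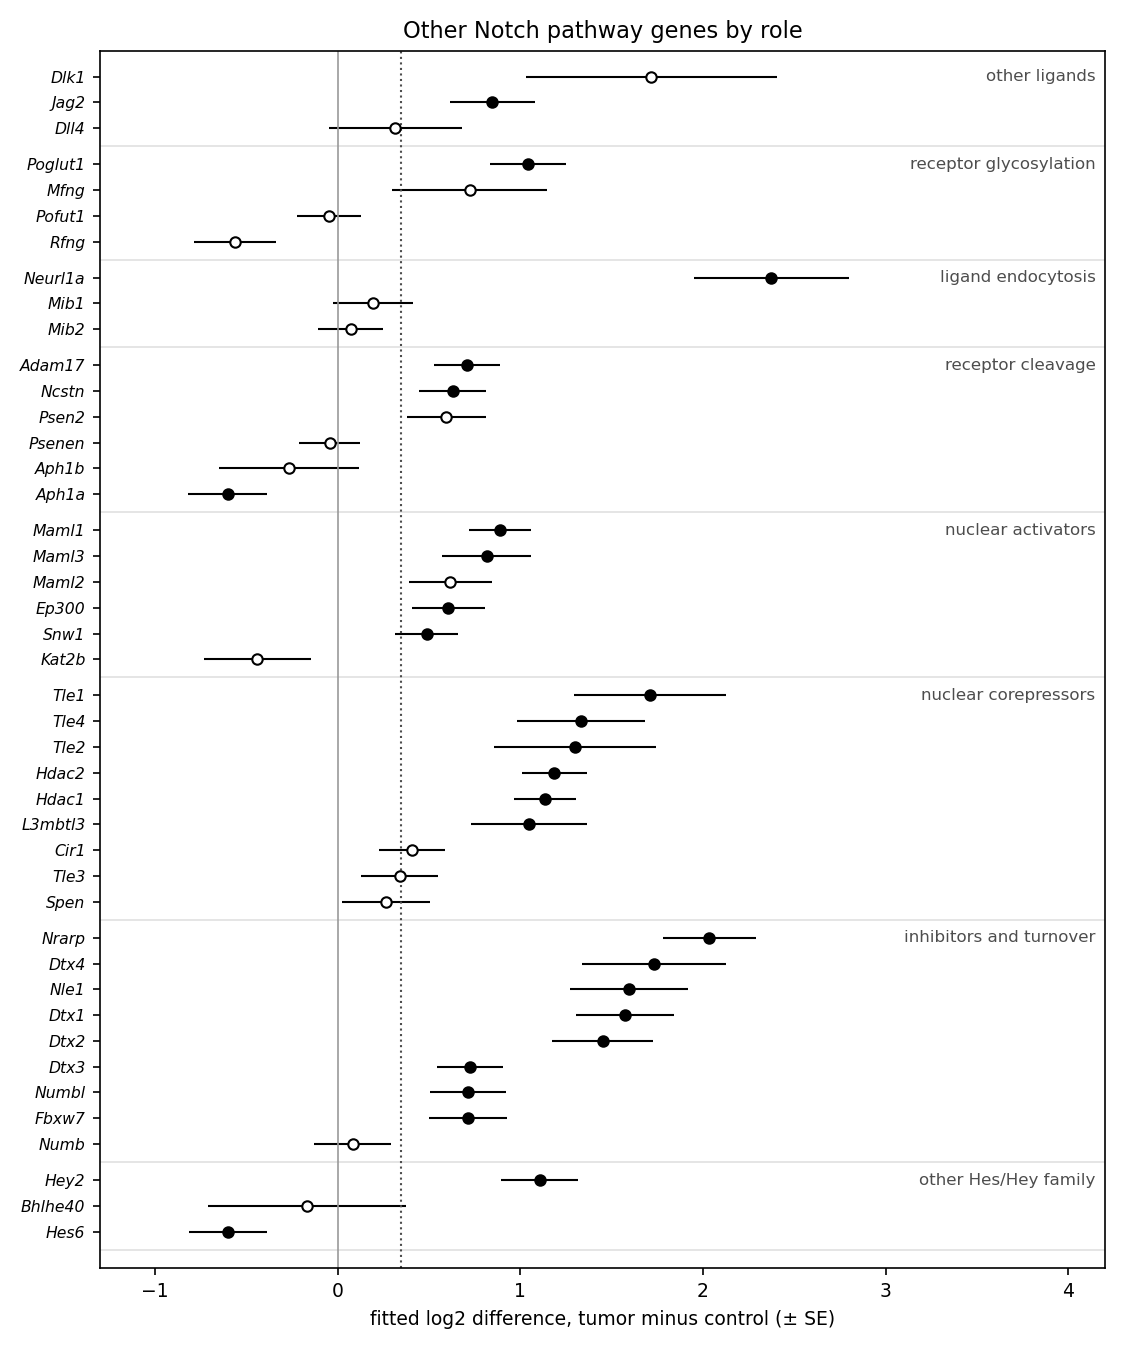
Fitted log2 difference, tumor minus control, with SE for the 43 tested other genes of the Notch pathway, grouped by role. Filled circles passed the threshold and the dotted line marks the median of all genes at 0.35; inhibitors and turnover factors lie mostly to its right, while Hes6 and Aph1a are the 2 filled circles below 0.

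Whether Notch genes of the same role changed by unequal amounts was asked within each array, where the scaling of the array largely cancels. The log2 difference of 2 genes was compared between tumors and controls by a two-sided exact permutation test over 70 assignments. The 7 pairs were those within a role in which both genes were above background on all arrays of at least 1 group, and the smallest p this design allows is 0.0286. In 4 of them both genes were above background on all 8 arrays. The other 3 pairs hold Heyl or Jag1, which qualified through the tumors and were at or under background in 4 and 2 of the controls. For these 3 pairs only the differences are given. Their tests were run all the same and entered the adjustment over 7 pairs. The difference Hey1 minus Hes1 was 0.94, 0.76, 1.12 and 0.60 in tumors 1 to 4, against -1.46, -1.92, -1.42 and -2.43 in controls 1 to 4. The groups differed by 2.66 ± 0.26 (SE) with no overlap (exact p = 0.0286, adjusted over 7 pairs 0.0667).

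Among receptors, Notch3 minus Notch4 was 0.88 ± 0.26 higher in tumors with no overlap (exact p = 0.0286, adjusted 0.0667). Notch3 minus Notch1 differed by 0.14 ± 0.14 (exact p = 0.371, adjusted 0.371) and by -0.01 with 64 added in place of 16, with tumors and controls overlapping. Notch1 minus Notch4 was 0.75 ± 0.37 higher in tumors (exact p = 0.143, adjusted 0.200). Of these 4 pairs 0 passed after adjustment over 7, and 2 had an unadjusted p under 0.05. With a smallest possible p of 0.0286, no pair can pass that adjustment unless most of the 7 pairs separate completely. The count of 0 therefore does not decide whether the changes were unequal. For the pairs with a gene at or under background in controls, the size moved with the value added. Hey1 minus Heyl was 1.65 higher in tumors with 16 added, 0.86 with 4 and 1.89 with 64. Heyl minus Hes1 was 1.02 higher with 16 added, 2.11 with 4 and 0.09 with 64. Jag1 minus Dll1 was 0.45 higher with 16 added, 1.05 with 4 and 0.08 with 64.

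**Figure D4:**
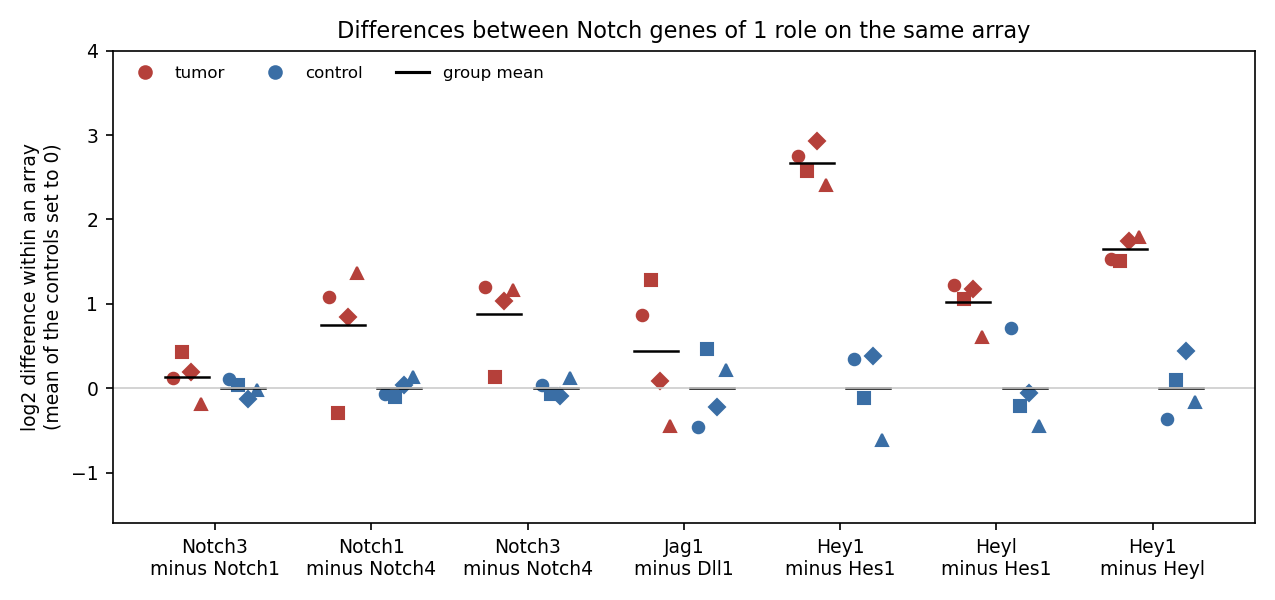
Log2 difference between 2 Notch genes on the same array for 7 pairs, with the mean of the controls set to 0; red markers are the 4 tumors, blue markers the 4 controls, marker shapes the replicate numbers and black lines the group means. The tumors lie 2.66 above the controls for Hey1 minus Hes1 and 0.14 above them for Notch3 minus Notch1.

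The Notch genes did not rank the 4 tumors alike. Jag1, Notch3 and Notch4 were highest in tumor 2, at 1.55, 1.34 and 2.00 times their mean over tumors. Dll1, Hes1, Hey1 and Heyl were highest in tumors 3 and 4 and at 0.64 to 0.76 of their mean in tumors 1 and 2. Notch1 was between 0.76 and 1.16 times its mean in all 4 tumors. These orders are descriptions of 4 tumors with no test.

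Marker lists also differed between the tumors. Tumor 2 had the highest summed intensity of 9 mural markers (smooth muscle and pericytes), 19026 against 3584 to 5156 in the other tumors and 609 to 1676 in controls. Of 8 mural genes tested 6 rose (75.0%, beside 32.2% of all genes) and 0 fell. Acta2, smooth muscle actin, led them in level with 15365 in tumor 2, while Cnn1 did not exceed the limit in any sample. Of 11 endothelial markers 0 rose and 0 fell in limma after adjustment, beside 32.2% and 12.2% of all genes. Flt1 alone had an unadjusted p under 0.05 (-0.93 log2 units, limma adjusted p = 0.0523). The endothelial sum was 4361 to 13941 in tumors, highest in tumor 2, and 4721 to 9621 in controls. Kdr did not exceed the limit in any sample, and Esam read -52.4 on tumor 1.

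All 8 nephron progenitor markers rose, beside 32.2% of all genes tested. Of these 8, Six2, Eya1, Gdnf, Meox2 and Osr1 were above background in 0 of 4 controls, and Cited1 in 1. All of these passed the filter on low values through the tumors, so for them the 32.2% is not a like comparison. The sum of the 8 markers was 4822, 3459, 6755 and 8190 in the 4 tumors, while controls held 109 to 276. Tumors 3 and 4, which were high in Dll1, Hes1, Hey1 and Heyl, thus had the highest sums of progenitor markers. Of 7 early nephron markers 3 rose (42.9%, beside 32.2% of all genes) and 0 fell. The sums of the 7 markers ranged from 3920 to 5604 in tumors and from 3371 to 4695 in controls. Most of each sum was Ccnd1, which did not pass and averaged 3436 in tumors and 3774 in controls. The 3 that rose were Bmper (mean 430 in tumors, 19.5 in controls), Wnt4 (233 and 8.20) and Fgf8 (113 and -0.525). Fgf8 was above background in 0 of 4 controls and passed the filter on low values through the tumors. Lhx1, Pax8 and Pou3f3 did not pass the test either. All 7 stromal markers rose, beside 32.2% of all genes, with sums of 7724 to 19239 in tumors and 1136 to 3143 in controls. Among them, Col1a2 was above background in 0 of 4 controls and passed the filter on low values through the tumors. The part of cell composition in the changes of the Notch genes was not tested.

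**Figure D5:**
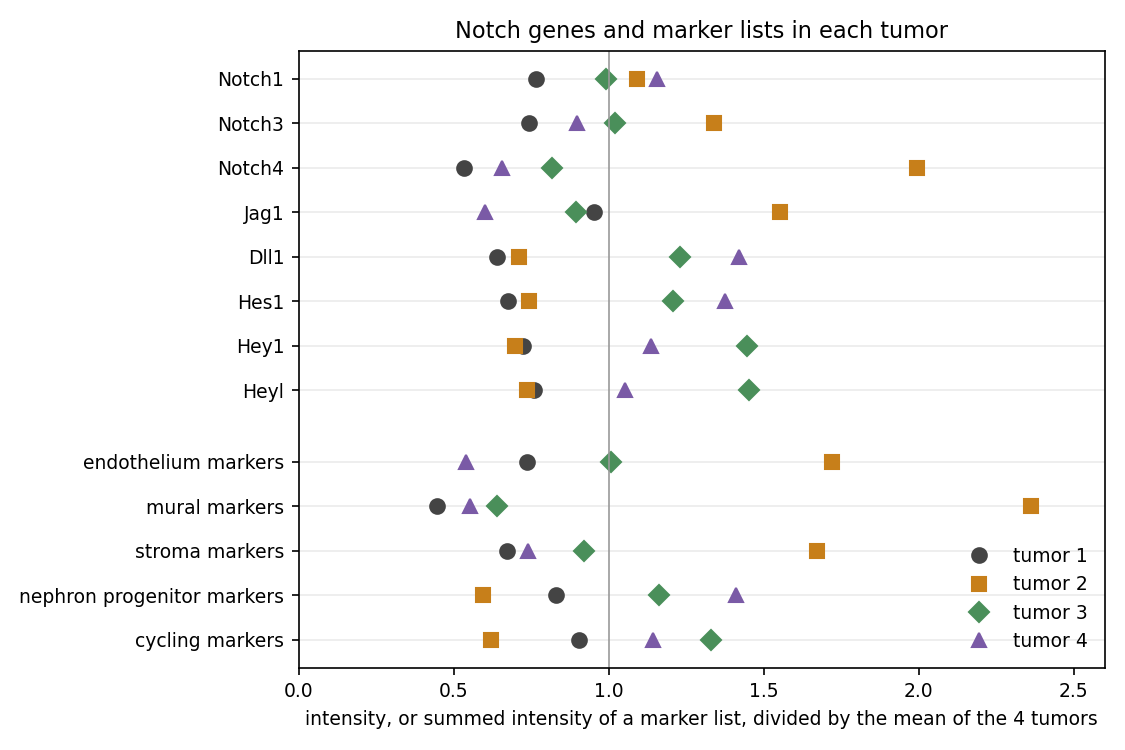
Intensity of 8 Notch genes, and summed intensity of 5 marker lists, in each tumor divided by the mean of the 4 tumors. Tumor 2 (orange squares) is highest for Notch3, Notch4, Jag1 and the endothelial, mural and stromal lists, and tumors 3 and 4 (diamonds and triangles) for Dll1, Hes1, Hey1, Heyl and the progenitor and cycling lists.

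For Hey1, the Notch gene with the largest change, the tested genes with the most similar values were sought over the 8 arrays. Likeness was the root mean square distance between log2 values centred on each gene's mean. The nearest were Cdc20, an activator of the mitotic ubiquitin ligase APC/C, at 0.19 log2 units, Cdca2, a mitotic phosphatase regulator, at 0.21, and Kif4, a mitotic kinesin, at 0.22. The values of Hey1 itself spread by 1.86 log2 units around their mean. Cdc20 read 461, 429, 849 and 942 in tumors 1 to 4, and 21.5, 46.7, 39.3 and 24.1 in controls 1 to 4. These distances mostly reflect the gap between the groups, and they are a description over 8 arrays.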

How the data were processed

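The authors deposited background-subtracted probe intensities, whose mean over all probes is 274 on every array; software and scaling method were stated by no label or header used here. A second table with 16 columns was not used, since its column names match no sample. Symbols came from the platform annotation (23978 probes with 1 symbol, 1719 with none), updated through GRCm38.p6 gene numbers (23962 matched, 0 changed). Values under 0 were raised to 0 and log2(value + 16) was used. Probes with a mean under the 40th percentile were removed (10279) and the brightest kept probe stood for a gene. The noise of an array was the scaled median size of its values below 0. The percentage of probes above background was 44.2% to 55.3%, and the number of arrays limits the precision.

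The comparison used limma 3.58.1 under R 4.3.3 (lmFit, eBayes, two-sided, Benjamini-Hochberg over 11413 units), tested on simulated data. Pairs of genes used exact permutation tests (SciPy 1.17.1). Most genes were named by rule: all 10 Notch genes, and for each other pathway list the called genes with the 2 largest rises and 2 largest falls, up to 3 bright markers per cell type, and 3 genes nearest to Hey1. Genes outside this rule, such as Flt1, Cnn1, Kdr, Wnt4 and Fgf8, were named after their values were seen. The genes and lists were chosen with earlier results of these data known. Promoters are RefSeq's, found for 7 of the 10 Notch genes. Replicate numbers were not taken as pairs in the main fit. Deviations of same-numbered samples correlated at 0.07 to 0.21. This was above the best differently numbered control for tumors 1, 3 and 4 and below it for tumor 2. Alternatives were 2 other added values, 3 normalizations, normexp correction (offset 50), filters, probe rules, variance models, age, the replicate block and leaving out arrays.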

Additional observations from a re-analysis of the deposited data

Results flagged for a closer look

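In 3 of 54 groups of 4 arrays, 1 array lay far from the other 3 by Dixon's test; chance gives about 1 in 20. For the brighter Notch2 probe, control 2 read 10.6 and the other controls 6.0 to 6.2, all at or under background. For the dimmer Hes5 probe, tumor 1 read 16.5 and the other tumors -0.70 to 2.00, all at or under background; the noise of tumor 1 was 9.19, the highest of the 8 arrays. For Dtx4, tumor 2 read 594.2 and the other tumors 242 to 299, and a second Dtx4 probe was also highest in tumor 2, at 308 against 156 to 189.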

How the results depend on the processing

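Over the alternatives, 185 of 204 values of the 9 tested Notch genes kept their side of the threshold, 16 lost it (8 for Dll1 and 8 for Hes1), 3 gained it (Notch4) and 0 called values turned sign. Notch1, Notch3, Jag1, Hey1 and Heyl passed in every setting in which they were tested, with the highest adjusted p at 0.0478 for Jag1 with cyclic loess. Quantile normalization called 2388 genes higher, and 14 other pathway genes higher and 4 lower. Cyclic loess called 2141 genes higher and 2135 lower, and 14 other pathway genes higher and 5 lower. Arrays scaled to the same median called 14 other pathway genes higher. Array weights called 5532 genes higher and 2112 lower, and 4 other pathway genes lower. Other pathway genes called lower numbered 1 with normexp correction, with the mean of probes, with single probes, with an intensity trend and with the replicate block, and 0 with 4 added and with no filter; leaving out 1 array gave 0 to 2. With the replicate number as a block, 8 of the Notch genes rose, including Notch4 (0.94, adjusted p = 0.0340), 23 other pathway genes rose, and 3728 genes rose and 1360 fell. Same-numbered samples correlated at 0.21, 0.20, 0.11 and 0.07, beside at best 0.15, 0.28, 0.02 and 0.05 with differently numbered controls. Exact tests without 1 array cannot go below 0.0571, so no pair can pass there. Of the 28 other values of the 7 pairs 0 passed, where passing needs most of the 7 pairs to separate completely. Of the 46 losses among other named pathway genes the cause was not tested. Intensities near background (Notch2, Hes5, Rbpj) give no level.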
